A study of Drosophila melanogaster with 4 samples.

Results

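Antimicrobial peptide genes of Drosophila melanogaster were followed across 4 conditions in Kc167 cells, a female line derived from embryos that has features of blood cells (hemocytes). The 7 genes were Mtk, DptB, CecB, AttD, CecC, Drs and Def, chosen by name with no use of their measured values, although earlier results of these arrays were known. Each of 6 of them had 1 probe set of its own on the array, among 10844 genes with such a probe set. The probe sets were 143770_at for Mtk, 147473_at for DptB, 143098_at for CecB, 150090_at for AttD, 143605_at for Drs and 143607_at for Def. CecC had none in the annotation used here and is not analysed further.

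Each condition was measured on 1 Affymetrix DrosGenome1 array. The combined cells received 10 µM muristerone A, an ecdysone analog from plants that activates the ecdysone receptor, for 72 h and then 280 Gy of gamma rays. The ecdysone cells received the same hormone analog and a mock treatment, the irradiated cells received 280 Gy without hormone, and the control cells received neither. All cells, control included, came from the same line in serum-free medium with antibiotics and rested for 90 min after irradiation or mock treatment, before total RNA was taken. The labels name no microbial challenge. Each condition is represented by 1 sample, so no difference below has a replicate check.

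Antimicrobial peptides are short, mostly secreted proteins that flies make in the fat body and in hemocytes after infection. Peptidoglycan of Gram-negative bacteria switches on many of their genes through the Imd pathway and the NF-kappaB factor Relish, and fungi and Gram-positive bacteria act through the Toll pathway and the factors Dif and Dorsal. The steroid hormone 20-hydroxyecdysone is known from hemocyte lines and from flies to raise the capacity to express several of these genes. Mtk encodes metchnikowin, a proline-rich peptide active against fungi and Gram-positive bacteria that both pathways can induce. DptB and AttD encode glycine-rich peptides of the diptericin and attacin families, which act on Gram-negative bacteria. CecB and CecC encode cecropins, helical peptides that disrupt bacterial membranes. Drs encodes the antifungal peptide drosomycin, the usual readout of Toll in the fat body, and Def encodes a defensin, which acts on Gram-positive bacteria.

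The genes lie on 3 chromosome arms, Mtk, DptB and Def on 2R, CecB, AttD and CecC on 3R, and Drs on 3L. In the Release 6 annotation CecB and CecC are direct neighbours in the cecropin cluster, and DptB lies next to the other diptericin gene, DptA. Cecropin genes are similar in sequence. How far the CecB probe set also detects its relatives was not tested.

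Values are MAS5 signals, a linear measure of probe set brightness. Signals below the floor, the median of all signals at 119.4 units, were raised to it before differences were taken, and a fold computed against a raised signal is written as "at least". A called probe set is one with an adjusted p under 0.05 in an additive limma fit of both treatments to the unfloored log2 signals of 5981 probe sets, and rose, fell and changed are used only for those. All 6 measured genes were among the 5981, which were chosen by a mean log2 signal over the 4 arrays above the floor. Signals of different genes are not set against each other.

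Of the 6 measured genes 4 rose with ecdysone, Mtk, CecB, DptB and AttD, while Drs and Def did not pass the test. In the unirradiated pair the differences ranged from 3.73-fold for AttD to at least 56.6-fold for Mtk. The same 4 genes were higher in the irradiated pair too, by 1.48-fold to 9.52-fold. The limma call for an increase with ecdysone was given to 1.44% of all 5981 probe sets, and that for a decrease to 0.552%, which included no member. These shares cover all signal intensities and were not matched to the brightness of the 4 genes. More cells that express a gene and more of its RNA per cell cannot be told apart in these bulk samples.

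Mtk had a signal of 6759 in ecdysone cells against 101.9 in control cells, and 5108 in combined cells against 536.6 in irradiated cells. The control signal lay below the floor, and the other 3 lay above it, with both cultures with hormone far above both without it. Its log2 difference was 5.82 without irradiation and 3.25 with it. The fitted ecdysone difference was 4.65 ± 0.42 (SE of the fit over 4 arrays, limma adjusted p = 3.05e-09).

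DptB was already bright without hormone. It reached 26451 signal units in ecdysone cells against 3561 in control cells, and 25100 in combined cells against 7762 in irradiated cells. Both cultures with hormone were thus near the same level, and both cultures without it were lower. The log2 differences were 2.89 and 1.69, with a fitted difference of 2.29 ± 0.27 (SE, limma adjusted p = 4.87e-07).

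CecB had 2901 signal units in ecdysone cells against 250.2 in control cells, and 1109 in combined cells against 330.4 in irradiated cells. Here the 2 cultures with hormone differed from each other, and both stood above those without it. The log2 differences were 3.54 and 1.75, and the fitted difference was 2.64 ± 0.44 (SE, limma adjusted p = 0.000209).

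AttD, whose product lacks the signal peptide of the other attacins, had 5666 signal units in ecdysone cells against 1518 in control cells, and 3698 in combined cells against 2504 in irradiated cells. It showed the smallest increase of the genes that passed, 1.90 and 0.56 on the log2 scale, with a fitted difference of 1.23 ± 0.29 (SE, limma adjusted p = 0.0152). This call was lost with quantile normalization (limma adjusted p = 0.157), with the floor for testing at the 60th percentile (0.0919) and with no floor (0.197).

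Drs and Def stayed in the weak range. Drs had 34.1 signal units in ecdysone cells against 165.5 in control cells, and 226.5 in combined cells against 176.0 in irradiated cells. The low value in the ecdysone array stood alone, and on floored signals the log2 differences were -0.47 and 0.36 (fitted difference -0.96 ± 1.37 (SE), limma adjusted p = 0.899). Def had 151.5 signal units in ecdysone cells against 187.9 in control cells, and 106.9 in combined cells against 130.1 in irradiated cells. All 4 Def signals lay close to the floor, with log2 differences of -0.31 and -0.12 (fitted difference -0.30 ± 1.23 (SE), limma adjusted p = 0.964). With standard errors above 1 at such signals, differences of 2-fold were not detectable for Drs and Def.

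**Figure D1:**
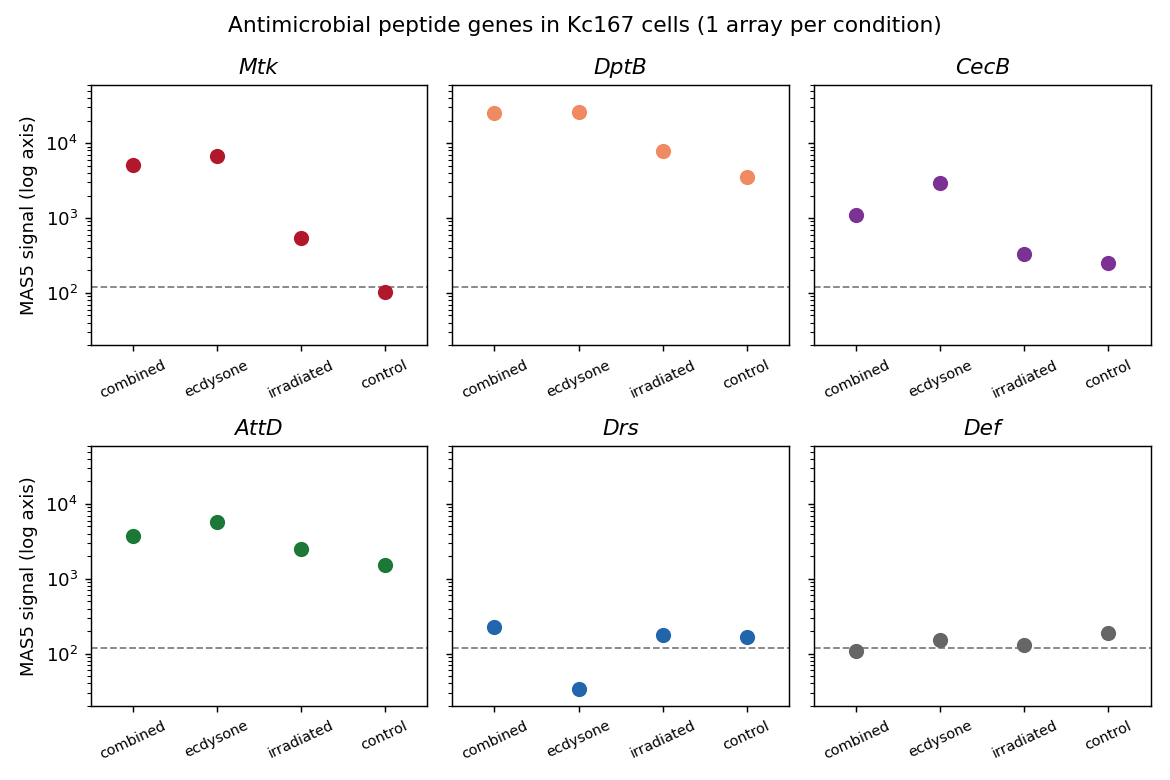
MAS5 signal (log axis) of the 6 measured genes on the 4 arrays, 1 point per array, with the dashed line at the floor of 119.4 units. Mtk, DptB, CecB and AttD were highest in ecdysone cells and lowest in control cells. Def lay near the floor on all 4 arrays, and Drs was slightly above it on 3 and well below it, at 34.1 units, in ecdysone cells.

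Counted by size alone, 4 of 6 genes were at least 2-fold higher in the unirradiated pair, against 16.8% of the tested probe sets, and 3 of 6 in the irradiated pair, against 15.1%. Mtk, DptB and CecB passed 2-fold in both pairs, as did 4.7% of the tested probe sets. The median difference of the 6 genes was 2.40 without irradiation and 1.13 with it, where the median of all tested probe sets was 0.00 in both.

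**Figure D2:**
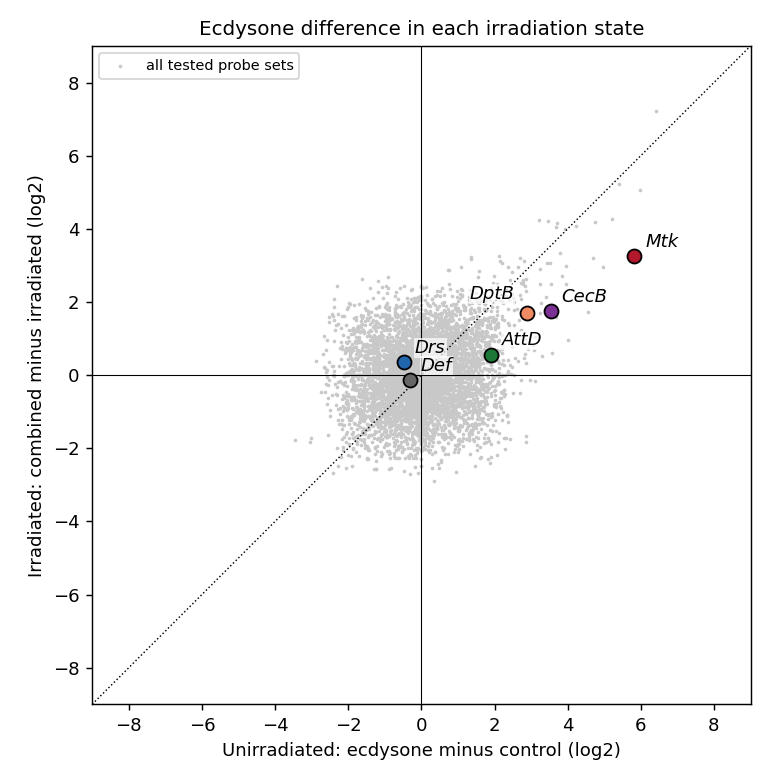
Log2 ecdysone difference in the irradiated pair (vertical axis) against that in the unirradiated pair (horizontal axis), with 6 genes as large labelled points, 5981 tested probe sets in grey and a dotted line of equality. Mtk, CecB, DptB and AttD lie to the right of zero and below the line of equality, and Drs and Def lie inside the cloud.

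The limma fit draws its spread from 1 residual degree of freedom, the disagreement of the 2 pairs, and from a prior that follows signal intensity and weighs a median of 29.4 degrees of freedom, so its p-values do not measure the spread between cultures. With a prior that does not follow intensity none of the 6 genes passed (limma adjusted p = 0.668 for Mtk, DptB and CecB and 0.747 for AttD), and neither did any of the 5981 probe sets.

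**Figure D3:**
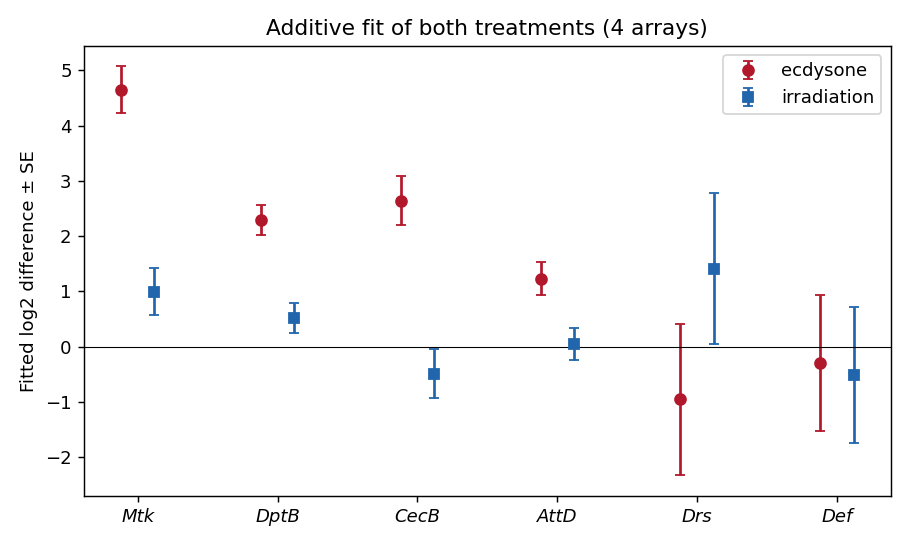
Fitted log2 difference for ecdysone (circles) and irradiation (squares) of each gene in the additive limma fit over 4 arrays, with bars of 1 standard error. The ecdysone values of Mtk, CecB, DptB and AttD range from 1.23 to 4.65, and Drs and Def have bars of over 1 unit on each side.

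Irradiation changed none of the 6 genes in the additive fit, where 0.485% of the tested probe sets changed. At an unadjusted p under 0.05 there was 1, Mtk, against 6.87% of the tested probe sets, with a fitted difference of 1.00 ± 0.42 (SE, limma adjusted p = 0.601). No gene was at least 2-fold higher in both irradiation pairs, against 3.18% of the tested probe sets. The median irradiation difference of the genes was 0.56 without ecdysone and -0.37 with it, where the median of all tested probe sets was 0.00 in both.

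The irradiation differences had opposite signs in the 2 hormone states for the 4 genes that rose with ecdysone, except that DptB had 0.06 in place of -0.08 with hormone under median scaling, and so the same sign in both. Without hormone, Mtk had 536.6 signal units in irradiated cells against 101.9 in control cells, at least 4.50-fold higher. DptB had 7762 in irradiated cells against 3561 in control cells, a 2.18-fold difference. AttD had 2504 in irradiated cells against 1518 in control cells, and CecB had 330.4 in irradiated cells against 250.2 in control cells. Mtk and DptB thus passed 2-fold, 2 of 6 genes, against 14.6% of the tested probe sets.

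With hormone the same 4 genes were lower in combined cells than in ecdysone cells. CecB had 1109 signal units in combined cells against 2901 in ecdysone cells, a log2 difference of -1.39, and was the 1 gene of 6 at least 2-fold lower, against 14.5% of the tested probe sets. AttD had 3698 in combined cells against 5666 in ecdysone cells (log2 difference -0.62). Mtk had 5108 in combined cells against 6759 in ecdysone cells (-0.40), and DptB had 25100 in combined cells against 26451 in ecdysone cells (-0.08, or 0.06 with median scaling).

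An irradiation difference above 0 without ecdysone and below 0 with it was thus present in 4 of 6 genes, and in 3 with median scaling, against 22.5% of the tested probe sets under the main scaling. The 2 irradiation differences are not independent of the ecdysone values, since all come from the same 4 arrays, and the control array is shared by both differences against control. The interaction, the ecdysone difference of irradiated cells minus that of unirradiated cells, was -2.57 on the log2 scale for Mtk with its control signal raised to the floor, and from -2.94 to -2.04 over other scalings and floors. It was -1.79 for CecB, -1.34 for AttD and -1.20 for DptB. These interactions were at least 2-fold in 4 of 6 genes, against 20.4% of the tested probe sets with an interaction of that size and sign. An interaction leaves no residual with 4 arrays, so it was not tested.

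**Figure D4:**
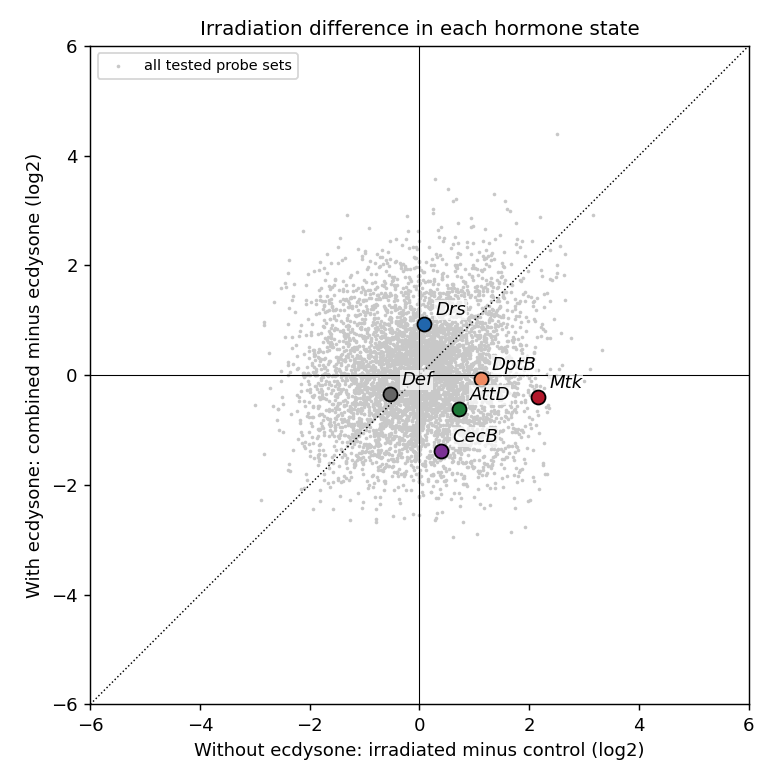
Log2 irradiation difference with ecdysone (vertical axis) against that without ecdysone (horizontal axis), with 6 genes as large labelled points, 5981 tested probe sets in grey and a dotted line of equality. Mtk, DptB, AttD and CecB lie at the lower right, above 0 without ecdysone and below 0 with it.

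From high to low, the signals of Mtk, DptB, CecB and AttD had the same order, ecdysone, combined, irradiated and control. It was held by 4.93% of the tested probe sets, a share not matched to genes already called for ecdysone. This order implies the opposite signs of the irradiation difference and a negative interaction, so these are not separate results. With median scaling DptB was higher in combined than in ecdysone cells, and 3 genes held the order. Not every step in it was wide. The standard error of a difference between 2 arrays, taken from the fit, was 0.60 for Mtk, 0.38 for DptB, 0.63 for CecB and 0.41 for AttD on the log2 scale. The step between ecdysone and combined cells was smaller than that for Mtk and DptB, and the step between irradiated and control cells was smaller for CecB. For AttD each of the 3 steps, 0.62, 0.56 and 0.72, exceeded it. Drs was highest in combined and lowest in ecdysone cells, and Def was highest in control and lowest in combined cells, with all differences inside their standard errors of 1.94 and 1.74 except the drop of Drs to 34.1 units.

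Against control, combined cells had a log2 difference of 5.42 for Mtk, 2.82 for DptB, 2.15 for CecB and 1.28 for AttD. Drs was at 0.45 and Def at -0.65 in this comparison, which has no fit of its own.

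Run order went with irradiation. Per the file headers, wash modules 1 to 4 and the order of scanning both ran irradiated, combined, control, ecdysone, so irradiation and run order cannot be told apart. In each irradiation state the array with hormone was scanned after its partner. The log2 signal of the 3′ end over the 5′ end of the GAPDH transcript was 1.81 in combined, 0.82 in ecdysone, 1.49 in irradiated and 0.52 in control cells. For actin it was -0.47, 0.27, 0.93 and -0.29, and for eIF-4a -0.34, 0.19, 0.58 and 0.01, in the same order of cells. The GAPDH ratio was higher with hormone in each irradiation state, and those of actin and eIF-4a were higher with hormone in unirradiated cells alone. With irradiation the GAPDH ratio was higher by more, 1.49 against 0.52 without hormone and 1.81 against 0.82 with it. Those of actin and eIF-4a were higher with irradiation only in cells without hormone. The part of these ratios and of run order in the irradiation and ecdysone differences was not tested. Median signals were 113.7 in combined, 124.95 in ecdysone, 118.7 in irradiated and 121.4 in control cells, and 48.8% to 51.0% of all signals exceeded the floor.

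The pathways that act on these genes were followed through 4 lists. Of 28 genes of the Imd pathway, 23 had a probe set of their own and 13 were tested, with none called for ecdysone or irradiation. At an unadjusted p under 0.05 there were 0 for ecdysone and 1 for irradiation, where all tested probe sets had 9.76% and 6.87%. The median ecdysone difference of the 13 was 0.26, against -0.02 for all tested probe sets. Standard errors of the fitted ecdysone difference ran from 0.38 to 1.30 in the 13, against 0.27 to 0.44 for the 4 called peptide genes. A missing call therefore does not show that a gene stayed the same. PGRP-SC2, which encodes an amidase that degrades peptidoglycan, had the highest mean ecdysone difference (0.42 and 1.81, limma adjusted p = 0.757). The next was casp, which encodes Caspar, a protein that restrains Imd signalling (1.91 and 0.30, limma adjusted p = 0.538). At the low end were ben, a ubiquitin-conjugating enzyme (-0.19 and -1.11), and POSH, a ubiquitin ligase (-1.87 and 0.68).

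Rel, which encodes Relish, was singled out after its values were seen. It had 362.1 signal units in ecdysone cells against 13.8 in control cells, and 329.7 in combined cells against 218.4 in irradiated cells. The control array alone was below the floor, and the differences of 1.60 and 0.59 did not pass (limma adjusted p = 0.511). PGRP-LE, an intracellular peptidoglycan sensor, had 1158 signal units in combined, 403.7 in ecdysone, 701.1 in irradiated and 221.1 in control cells, again without a call for ecdysone (limma adjusted p = 0.647) or irradiation (0.222). PGRP-LC, the transmembrane receptor of the pathway, had no probe set of its own and is not analysed here.

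Of 23 genes of the Toll pathway, 19 had a probe set and 7 were tested, with none called for either treatment and none at an unadjusted p under 0.05. Their median ecdysone difference was 0.54. Standard errors of the fitted ecdysone difference ran from 0.48 to 1.36, so here too a missing call does not show that a gene stayed the same. The highest were tub (1.41 and 0.29, limma adjusted p = 0.775) and pll (1.19 and 0.29, limma adjusted p = 0.807), the adaptor and the kinase that act below the receptor Toll. The lowest were Dif, too weak for the test (0.00 and -0.70), and spz, which encodes the ligand of Toll (-0.76 and 0.62).

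Of 45 other genes for antimicrobial peptides and secreted effectors, 20 had a probe set of their own, and AttA, AttB, AttC, CecA1, CecA2, DptA and Dro were not among them. The 8 tested genes had a median ecdysone difference of -0.16 and none was called for ecdysone or irradiation, with 1 and 2 of the 8 at an unadjusted p under 0.05, beside the same 9.76% and 6.87% over all tested probe sets. The highest were Drsl5, a relative of drosomycin (-0.10 and 2.14), and LysD, a lysozyme gene (-0.52 and 1.94). The lowest were the lysozyme genes LysE (-2.52 and -0.15, limma adjusted p = 0.334) and LysB (-1.70 and 0.20). Genes of the lysozyme cluster are similar in sequence, so their probe sets may share signal.

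The last list held GATA factors and ecdysone response factors, several of which are known from Drosophila cells to act on antimicrobial peptide genes, with 14 genes, 12 with a probe set and 7 tested. The median ecdysone difference of the 7 was 0.62. Of these 2 rose with ecdysone and none fell, where limma called 1.44% of all tested probe sets higher and 0.552% lower. None changed with irradiation, and none had an unadjusted p under 0.05 for it. Eip78C, a nuclear receptor gene, had 1849 signal units in ecdysone cells against 32.0 in control cells, and 948.1 in combined cells against 47.9 in irradiated cells (limma adjusted p = 0.000335). Hr4, another nuclear receptor gene, had 856.7 in ecdysone cells against 21.1 in control cells, and 646.2 in combined cells against 63.7 in irradiated cells (limma adjusted p = 0.0296). The call of Hr4 was lost with quantile normalization (limma adjusted p = 0.0607) and with no floor (0.0915), and with the floor at the 60th percentile it was not tested. A second, weaker Hr4 probe set had ecdysone differences of 0.00 and 1.05. Eip78C and Hr4 both lay below the floor in the 2 cultures without hormone, irradiated cells included. They passed the filter on mean signal only through the cultures with hormone, which favours a call for an increase. At the low end of the list were srp, the GATA factor of the blood lineage (-0.47 and 0.08, limma adjusted p = 0.970), and br (-1.04 and 0.88), whose 2 other probe sets were below the floor on all 4 arrays.

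**Figure D5:**
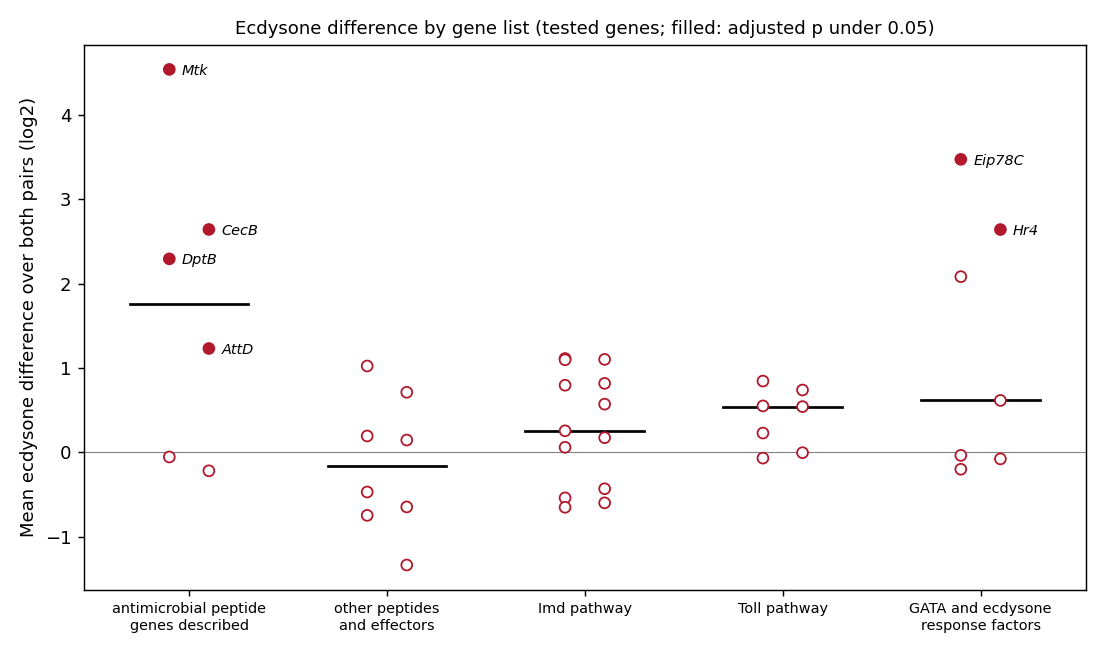
Mean log2 ecdysone difference over both pairs for each tested gene of 5 lists (points, filled where the limma adjusted p was under 0.05) with the list median as a bar. Mtk, CecB, DptB and AttD, and the receptor genes Eip78C and Hr4, are the filled points, and the tested genes of the Imd and Toll lists lie between -0.65 and 1.11. An open point marks a missing call and does not show that a gene stayed the same.

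Genes whose pattern was most like that of the peptide genes were sought by the Euclidean distance between floored log2 profiles over 4 arrays, each centred on its own mean, and the mean profile of the 6 genes. The nearest of 4961 other genes were Zip99C (distance 0.18), Tsp42Ee (0.22), Obp73a (0.23), RhoGAP18B (0.25) and Obp44a (0.27), where the median distance was 2.07. Zip99C had 1802 signal units in ecdysone cells against 379.8 in control cells, and 1575 in combined cells against 558.4 in irradiated cells. Zip99C and Tsp42Ee rose with ecdysone (limma adjusted p = 0.00304 and 0.0229), and Obp73a, RhoGAP18B and Obp44a did not pass. All were picked on the same arrays for likeness to a profile that is high with ecdysone. Their limma calls are therefore no separate evidence. RhoGAP18B had 4 probe sets that disagreed, with a mean ecdysone difference of 1.90 for the near one and 0.91, -0.45 and -0.53 for the others. The genes themselves lay farther from their own mean, with AttD at 0.55, DptB at 0.67 and CecB at 1.19. Drs at 2.04 was near the median distance of 2.07, and Def at 2.13 and Mtk at 2.99 lay beyond it. The mean profile is thus not that of each gene.

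Hemocyte markers moved with ecdysone in both directions beside the peptide genes. Of 15 markers 14 had a probe set and 10 were tested. Among these Col4a1, Pxn and Fer2LCH rose and Hml and Nplp2 fell, where limma called 1.44% of all tested probe sets higher and 0.552% lower. Col4a1 lay below the floor in both cultures without hormone (112.8 in irradiated and 50.5 in control cells). It passed the filter on mean signal only through the cultures with hormone, which favours a call for an increase. Pxn, which encodes peroxidasin, an enzyme of the extracellular matrix, had 3091 signal units in ecdysone cells against 597.7 in control cells, and 5560 in combined cells against 710.9 in irradiated cells. Hml, which encodes the clotting protein hemolectin, had 284.3 signal units in ecdysone cells against 922.0 in control cells, and 240.4 in combined cells against 1110 in irradiated cells. The call of Hml was lost with quantile normalization (limma adjusted p = 0.0607), with the floor at the 60th percentile (0.0607) and with no floor (0.333). On all 4 arrays 6 of the hemocyte markers were above the floor. The summed signal of the 14 was 22304 in combined, 16577 in ecdysone, 20479 in irradiated and 15402 in control cells. This sum mixes markers that moved in opposite directions and rests on a few bright ones. Nplp2 alone had 5089 in combined, 5386 in ecdysone, 14940 in irradiated and 10881 in control cells. The phagocytosis receptor gene crq was below the floor on all 4 arrays, and NimC1 was above it in combined cells alone. Fat body markers, with 7 of 10 on a probe set of their own and 5 tested, had no limma call for ecdysone (1 of 5 with an unadjusted p under 0.05, where all tested probe sets had 9.76%) and summed to 1757 in combined, 2175 in ecdysone, 1201 in irradiated and 1220 in control cells, with Fbp2 below the floor on all 4 arrays. For irradiation limma called none of them either, and 3 of 5, Lsp2, Fbp1 and Yp2, had an unadjusted p under 0.05, against 6.87% of all tested probe sets, with mean differences of -2.19, 1.73 and 0.98. Of the tested markers of muscle and of crystal cells and lamellocytes, 2 and 3 genes, limma called none for ecdysone (0 with an unadjusted p under 0.05), and the 3 neuron markers with a probe set were too weak for the test. The part of the cell state these markers reflect in the differences of the peptide genes was not tested.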

How the data were processed

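Total RNA of 4 Kc167 cultures was hybridized to DrosGenome1 arrays. The authors deposited 1 linear signal intensity per probe set and array. These come from MAS5, per the submitters' processing notes, which name no version. The settings of each array run (wash module, scan time) were read from the other deposited files, per the file headers.

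Of 14010 probe sets 44 controls were left out. Of the 13966 others, 12443 had 1 gene symbol, 327 several and 1196 none. For 12394 of the 12443 the symbol was brought up to date by gene identifier in the Release 6 annotation. Each array was scaled to a common trimmed mean, leaving out 2% at each end, which changed no array by more than 0.0667%. The printed signals are those scaled values. Where a gene had several probe sets, the one of highest mean log2 signal was used, except in the search for genes of like pattern, which took the nearest.

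An additive model was fitted with limma 3.58.1 in R 4.3.3 to the 5981 probe sets with a mean above the floor, using a prior that follows intensity and Benjamini-Hochberg adjustment. It was checked on simulated data whose spread followed intensity, as the prior assumes, so this check could not test that assumption. Python 3.11.15 with numpy 2.4.6 and pandas 2.3.3 made the tables, and matplotlib 3.10.9 the figures. With 1 array for each condition, precision is limited by their number. Alternatives were other scalings, floors, fold thresholds, limma priors, each pair alone and averaging a gene's probe sets. The 7 genes and all lists were chosen with earlier results of these data known. By rule all 7 genes are named, and from each of the 4 pathway lists the genes past limma and the 2 with the largest mean ecdysone difference in each direction.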

Additional observations from a re-analysis of the deposited data

Results flagged for a closer look

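For 4 genes, and for 3 with median scaling, the irradiation difference lay above 0 without ecdysone and below 0 with it, 1 array pair each, and the difference between the hormone states was not tested. It was -2.57 for Mtk, which had 2.17 without and -0.40 with ecdysone, its control signal being raised to the floor. It was -1.79 for CecB (0.40 and -1.39), -1.34 for AttD (0.72 and -0.62) and -1.20 for DptB (1.12 and -0.08, the last being 0.06 with median scaling). Drs had an ecdysone difference below 0 in the unirradiated pair (-0.47) and above 0 in the irradiated pair (0.36), a difference of 0.84 that was likewise not tested and rests on 1 signal below the floor. Over scalings and floors it ranged from 0.36 to 2.64.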

How the results depend on the processing

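With a limma prior that does not follow intensity 0 of the 6 genes passed for ecdysone, where the prior that does called 4, and at an unadjusted p under 0.05 limma without the trend still had 3 genes, Mtk, CecB and DptB. Quantile normalization, a floor at the 60th percentile and no floor each left 3 of these genes and 1 factor gene of the pathway lists in place of 2. The other scalings and the lower floor gave 4 and 2, and the robust prior gave 4. For irradiation, 2 genes passed the size rule in the pair without ecdysone alone, against 0 in both pairs, and no setting of scaling, floor or prior called a gene by limma. The interaction was at least 2-fold lower in 4 genes under all 3 other scalings and all 3 other floors. Over all probe sets limma called 119 for ecdysone and 29 for irradiation. With median scaling irradiation had 47, with quantile normalization 6, with the floor at the 60th percentile 6 (ecdysone 75), with no floor 4 (ecdysone 56), and without the trend both had 0 (418 for ecdysone and 303 for irradiation at an unadjusted p under 0.05). Of the alternatives for single genes, 140 were counted as the same, 17 as moved, most of them from 1 pair alone, and 7 lost a call. Counted as the same does not mean an equal value. For Drs, which was not called, it covers ecdysone differences from -0.96 to -0.01 and interactions from 0.36 to 2.64. Of those for the lists, 45 stayed the same and 3 moved. No called difference changed sign. With median scaling the difference of combined minus ecdysone cells was 0.06 for DptB against -0.08, so that 3 genes in place of 4 had opposite signs of the irradiation difference and 3 in place of 4 held the order of signals. Likewise the irradiation difference of AttD, which was not called, was -0.22 with quantile normalization against 0.05. The causes were not tested. Over scalings and floors Mtk ranged from 4.27 to 4.65, CecB from 2.61 to 2.65, DptB from 2.12 to 2.30 and AttD from 1.06 to 1.24. Each gene had 1 probe set, so the mean over probe sets gave the same values. No paired analysis was possible because the labels give no replicate numbers and each condition has 1 array, although the additive fit compares hormone states within each irradiation state. The interaction ranged from -2.94 to -2.04 for Mtk and from 0.36 to 2.64 for Drs. Signals near the floor limit Drs and Def, and single cultures limit every value.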
